A study of Mus musculus with 32 samples.

Results

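The solute carriers are the membrane proteins that move sugars, amino acids, vitamins, metals, ions and drugs across the membranes of a cell without direct use of ATP hydrolysis. Their transcripts were followed in mouse liver on Affymetrix MG-U74Av2 arrays. Members were all probe sets with 1 gene symbol of the form Slc plus a number or Slco and with a mean intensity over the 32 arrays above 94. The citrate carrier Slc25a1, the bile salt carrier Slc10a1 and Slc27a5, 6 probe sets in all, were set aside. Of 188 probe sets of 154 such genes, 115 probe sets of 102 genes met the rule, out of 12422 probe sets on the array; 67 probe sets lay at or below the limit, and 49 genes had no probe set above it. The members nearest the limit were Slc39a3 at 94.9 and Slc6a20b at 97.9 intensity units, and the nearest probe sets left out were those of Slc16a1 at 93.2 and of Slc39a1 at 89.7. By family number, 17 member probe sets (15 genes) were of the Slc25 family of mitochondrial carriers, 71 (62 genes) were plasma membrane carriers and 24 (22 genes) were carriers of other internal membranes. The other 3 bear a solute carrier symbol but are adaptors that bind carriers (Slc9a3r1, Slc9a3r2) or a nuclear and cytosolic protein named for such binding (Slc4a1ap).

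All 32 mice were males of the B6C3F1 hybrid, housed singly from 5 months of age, fasted for 48 hours and killed at 22 months, with 4 mice in each of 8 groups. Controls (CON) ate 93 kcal per week of a defined diet. Long-term calorie restriction (LTCR) gave 52.2 kcal per week of an enriched diet from 5 months, about 40% fewer calories. Short-term restriction (CR8) gave the same enriched diet from 20 months, at 77 kcal per week for 2 weeks and 52.2 kcal for 6 weeks. The other groups ate the control diet for 8 weeks from 20 months to which 1 agent or pair was added: the biguanide metformin (MET), the sulfonylurea glipizide (GLIP), that pair together (GM), the PPAR gamma activator rosiglitazone (ROS), or an extract of soy isoflavones (SOY). The labels refer to a dose table that was not used here. The design asks which of the short treatments move liver transcripts as restriction does. Each group is thus compared with CON, and these 7 comparisons share the 4 CON arrays. LTCR is also compared with CR8, and GM with each of its drugs.

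Column medians were 144.8 to 170.1 intensity units, and arrays correlated at 0.926 to 0.976. The hepatocyte markers Alb, Apoa1, Ttr and others (7 of 8 listed genes on the array) summed to 103266 units or more on every array, while the 3 kidney markers stayed below 192 in sum. The hepatocyte sum was 111399 ± 5708 in CON and 142350 ± 12282.5 in LTCR (SD, n = 4), with 5 of 7 called higher and 1 lower in LTCR. In the other groups its mean was 115694 (GLIP) to 130885 (MET), also above CON. The macrophage list summed to 5517 ± 513 in CON and 3736.5 ± 668 in LTCR, with 1 of 10 tested genes called lower. In the other groups its mean ran from 4058 ± 779 in CR8 to 8523 ± 6003 in GLIP, with no gene called. In a bulk sample, fewer cells of a type and less RNA per cell cannot be told apart, and the part of these markers in the results was not tested. Skeletal muscle transcripts were high on 5 arrays (CON 3, CR8 1, CR8 2, ROS 4 and SOY 3), which had Acta1, the muscle actin, at 2874 to 10461 units against 440 or less on the other 27. The effect of leaving these arrays out is given with the results.

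A fasting liver exports glucose and takes up amino acids, lactate and fatty acids. Glucose made in the endoplasmic reticulum depends on Slc37a4, which carries glucose 6-phosphate into that compartment, and leaves the cell through Slc2a2 (GLUT2). Mitochondrial carriers of the Slc25 family link these cytosolic pathways with the matrix: they pass dicarboxylates, acylcarnitines, ornithine and adenine nucleotides through the inner membrane. Zinc and copper enter hepatocytes through Slc39 and Slc31 carriers, and Slc30 carriers move zinc out of the cytosol.

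Start regions of 5 members whose values are given below are shown first, because cyclic AMP and zinc are textbook regulators of gluconeogenic and zinc-handling genes. They come from RefSeq's windows on the build GRCm38.p6 (250 bases before to 50 after a transcript start), which cover 84 of the 102 member genes with 122 windows. Only bases before the start are shown, 5' to 3' on the gene's strand. Capitals mark a cyclic AMP response element (TGACGTCA) in Slc25a25, its shorter core (TGACG, or CGTCA on the other strand) in Slc37a4 and Slc17a1, and a metal response element core (TGCGCNC or TGCACNC, here read on the other strand) in Slc30a1. The shorter core lies within the full element, both strands were searched, and the stretch of Slc2a2 is shown as one with none of these letters; that of Slc37a4 also holds an unmarked metal response core.
Slc25a25: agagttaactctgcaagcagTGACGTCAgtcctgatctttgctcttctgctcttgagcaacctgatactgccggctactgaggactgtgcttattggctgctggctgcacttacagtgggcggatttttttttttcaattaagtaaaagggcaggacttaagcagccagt
Slc37a4: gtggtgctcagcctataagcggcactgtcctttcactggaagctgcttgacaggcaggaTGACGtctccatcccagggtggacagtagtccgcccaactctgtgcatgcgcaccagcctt
Slc17a1: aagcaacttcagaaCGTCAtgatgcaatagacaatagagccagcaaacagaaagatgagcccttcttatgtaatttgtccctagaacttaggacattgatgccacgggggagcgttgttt
Slc30a1: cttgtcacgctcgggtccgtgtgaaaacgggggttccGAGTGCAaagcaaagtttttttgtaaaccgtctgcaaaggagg
Slc2a2: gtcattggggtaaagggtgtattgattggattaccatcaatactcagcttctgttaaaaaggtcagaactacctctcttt
These stretches lie at chr2:32424067-32424236 (minus strand), chr9:44396826-44396945, chr13:23868898-23869017, chr1:191906701-191906780 and chr3:28697823-28697902 (plus strand). The element of Slc25a25 begins 150 bases before its start, in 1 of 3 windows of that gene. The full element was in 2 of 122 member windows (1.64%) and in 1.79% of all 32851 windows, and the shorter core in 25.4% against 20.8%. Metal response cores were in 35.2% of member windows and 25.7% of all, and the E-box CACGTG in 9.84% and 7.15%. Members higher in LTCR had 32 windows from 13 genes, 8 of them from Slc29a1, and those lower had 17 windows from 13 genes. Windows of the same gene can overlap, so they are not independent. The shorter core was in 9 of the 32 and in 3 of the 17, and the full element in 1 and 0. Metal response cores were in 11 of the 32 and 8 of the 17, and the E-box in 1 and 2. Such matches describe letters and not sites in use.

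More carriers were called in LTCR than in any other group compared with CON. At an adjusted p under 0.05 (limma, Benjamini-Hochberg over all tested probe sets), 29 of the 115 member probe sets (25.2%) differed between LTCR and CON, 14 higher and 15 lower, beside 18.9% of all 7507 tested (7.41% higher and 11.5% lower). The median log2 difference was 0.040 over the members and 0.0043 over all tested probe sets. Calls fell on 3 of 17 Slc25 probe sets (2 higher, 1 lower), 17 of 71 plasma membrane probe sets (8 higher, 9 lower), 8 of 24 in other internal membranes (4 in each direction) and 1 of 3 adaptors. For 20 of the 29, and for 26 of all 115 members, the LTCR and CON arrays did not overlap. That count was not made over all tested probe sets. A small p favours such separation in the same arrays, so it is no further support. Leaving out the 5 arrays with muscle transcripts left 21 calls; those of Slc6a9, Slc16a7, Slc25a10, Slc25a20, Slc27a4, Slc35a1, Slc44a1 and Slc44a4 were lost (adjusted p 0.0565 to 0.211). Without the array LTCR 4, 19 were called: 18 of the 29, and Slc22a5 (adjusted p = 0.0119; 0.0769 with all arrays). The 11 lost were those of Slc4a4, Slc6a9, Slc16a7, Slc25a10, Slc25a20, Slc27a4, Slc35a1, Slc35b2, Slc35e1, Slc39a7 and Slc44a4 (0.0523 to 0.131).

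**Figure D1:**
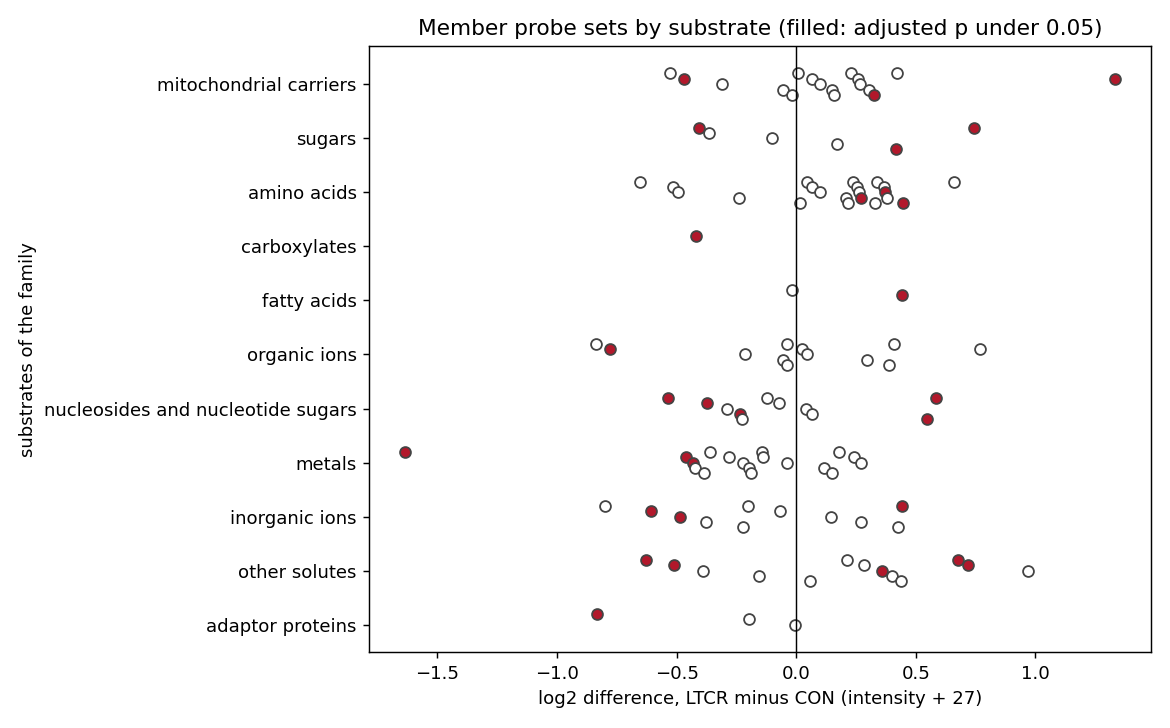
Each point is 1 member probe set, placed by its log2 difference between LTCR and CON (x axis) and by the substrates of its family (rows); filled points passed the adjusted threshold. The filled points run from Slc39a4 by its dimmer probe set at -1.64 among the metal carriers to Slc25a25 at 1.33 among the mitochondrial carriers. The 3 called of 21 amino acid probe sets lie to the right of 0. The 3 called of 18 metal probe sets lie to the left, and 18.9% of all tested probe sets were called.

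Among the carriers of glucose and its phosphate, the transcript of the carrier into the endoplasmic reticulum was higher and that of the carrier at the cell surface lower. Transport itself was not measured. Slc37a4, the glucose 6-phosphate translocase, read 1846, 1879.8, 1944 and 1570 units on the CON arrays and 3357, 2443, 2761 and 3741 on the LTCR arrays. Every LTCR array was above every CON array, and the log2 difference was 0.74 ± 0.15 (SE; adjusted p = 0.000672), a fold of 1.67 on the scale of intensity plus 27. Slc2a2, the glucose carrier of the hepatocyte surface, read 6214, 5857, 6172 and 5779 in CON and 5068, 3841, 4688 and 4606 in LTCR. These groups did not overlap either, in the opposite direction, and the log2 difference was -0.40 ± 0.096 (adjusted p = 0.0031). Slc2a8, an intracellular glucose carrier named after its values were seen, was higher in LTCR at 893 ± 98.1 against 662 ± 66.3 units (SD, n = 4; log2 difference 0.42, adjusted p = 0.0028). The 3 remaining probe sets of the sugar families, Slc2a3, Slc2a5 and the vitamin carrier Slc5a6, were not called. All 3 calls held with each array left out and in each processing alternative run.

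**Figure D2:**
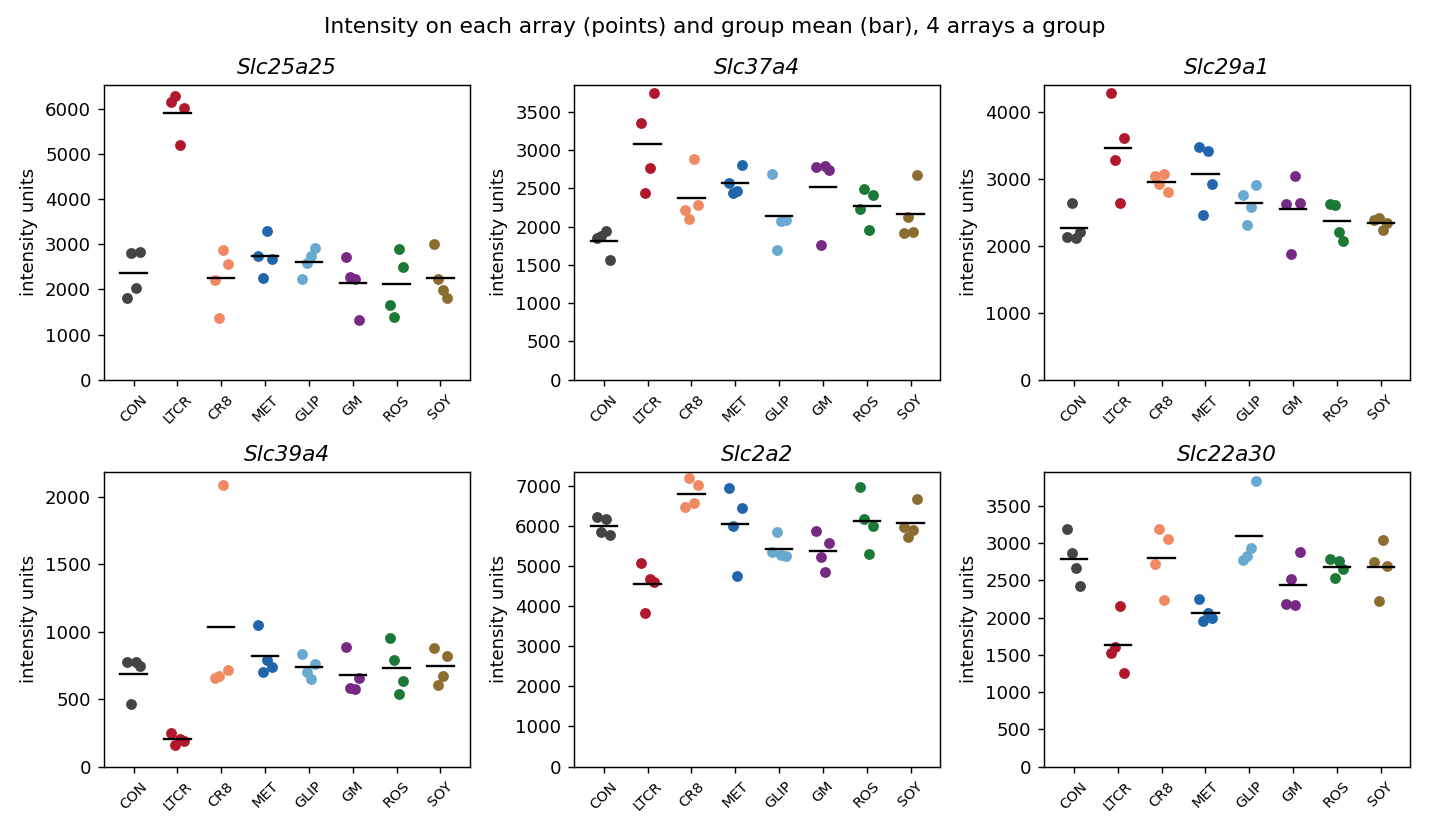
Intensity units on each array (points, axis from 0) and the group mean (bar) of 6 members in the 8 groups of 4 arrays. Slc39a4 is shown by its dimmer probe set. The LTCR arrays of Slc25a25 (5192 to 6281) lie above every other array and those of Slc39a4 (157 to 252) below every other array. Slc29a1 and Slc37a4 also have arrays above CON in CR8 and MET.

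The mitochondrial carriers held the largest rise among the members. Slc25a25, a calcium-regulated carrier that exchanges ATP-magnesium for phosphate, read 1812, 2812, 2025 and 2830.3 units in CON and 6159, 6281, 5192 and 6016 in LTCR. Every LTCR array lay far above the CON arrays, and the log2 difference was 1.33 ± 0.23 (adjusted p = 0.000111). Its levels in the other 6 groups spanned 1324 to 3287 over 24 arrays, a range that took in the CON arrays. Slc25a20, the carnitine-acylcarnitine carrier that brings fatty acids in for oxidation, was higher at 4894 ± 212 against 3905 ± 178 units (log2 difference 0.32 ± 0.12, adjusted p = 0.0470). Slc25a10, the dicarboxylate carrier, was lower at 2036 ± 375 against 2803 ± 325 units (-0.47 ± 0.16, adjusted p = 0.0436), and 1 LTCR array, at 2503, lay above the lowest CON array, at 2409.8. The call of Slc25a20 was lost with any 1 of the 8 arrays left out (adjusted p 0.0661 to 0.121). That of Slc25a10 was lost without CON 2, CON 3, CON 4, LTCR 2, LTCR 3 or LTCR 4 (0.0592 to 0.146), and both were lost without the muscle arrays (0.155 and 0.152).

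The 14 other Slc25 probe sets were not called. Slc25a47, a liver-enriched carrier named after its values were seen, read 7345 to 9505 in CON and 8142 to 12244 in LTCR (0.26 ± 0.16, adjusted p = 0.296). The ornithine carrier Slc25a15 of the urea cycle averaged 8039 ± 1020 and 8616 ± 1130 units, and the oxoglutarate carrier Slc25a11 averaged 1072 ± 33.3 and 1124 ± 73.9. Slc25a17, also named after its values were seen and known as a peroxisomal member of the family, read 1562, 875, 1577 and 1518 in LTCR, against 1632 to 1734 in CON. The low array there was LTCR 2.

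Amino acid carriers of the plasma membrane were called at 3 of 21 probe sets, beside 18.9% of all tested. All 3 were higher in LTCR, where 7.41% of all tested were called higher. The probe set of Slc38a4, a system A carrier of neutral amino acids, read 14149.8, 14642, 14177 and 13881 in CON and 18799, 18931, 16542 and 19503 in LTCR (log2 difference 0.37 ± 0.078, adjusted p = 0.000935). The groups did not overlap; quantile normalization ended the call (adjusted p = 0.0627, difference 0.19). Slc6a13, a carrier of GABA and taurine, read 3453, 2608, 2845 and 2851 in CON and 4759, 4145, 3495 and 3698 in LTCR (0.45 ± 0.11, adjusted p = 0.0031). Slc6a9, the glycine carrier GLYT1, was higher at 1562 ± 172 against 1285 ± 71.9 (0.27 ± 0.089, adjusted p = 0.0307), with 1 LTCR array at 1347 below the highest CON array at 1350.1. Its call was lost without CON 3, CON 4, LTCR 1, LTCR 2 or LTCR 4 (0.0582 to 0.131).

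The remaining 18 probe sets of the amino acid class missed the threshold, and the median over all 21 was 0.24. The class follows family numbers and takes in Slc6a2 and Slc6a4, which carry amines and not amino acids. Slc7a2, the cationic amino acid carrier that supplies arginine, read 2489, 2427, 1821 and 1764 in CON and 2834, 2465, 2431 and 3214 in LTCR (0.37 ± 0.15, adjusted p = 0.0843). Slc1a2, a glutamate carrier of hepatocytes around the central vein, averaged 388 ± 82.6 and 489 ± 59.3 (0.33, adjusted p = 0.0929). Slc3a2, the heavy chain that carries Slc7a5 to the surface, averaged 1052 ± 127 and 1108 ± 174, and Slc7a5 itself 551 ± 63.0 and 647 ± 127.

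Nucleoside and nucleotide sugar carriers were called at 5 of 11 probe sets, beside 18.9% of all tested. Of these calls, those of Slc35e1, Slc35a1 and Slc35b2 depended on single arrays, as given below. Slc29a1, the equilibrative nucleoside carrier ENT1, read 2127, 2643, 2113 and 2211 in CON and 4282, 3278, 2642 and 3612 in LTCR (log2 difference 0.58 ± 0.13, adjusted p = 0.0021). The lowest LTCR array lay just under the highest CON array. A dimmer probe set of the same gene, at 194 units in LTCR and 195 in CON, was not called (adjusted p = 0.825). Slc35d1, which brings UDP-glucuronic acid into the endoplasmic reticulum, read 2987, 3111, 2959 and 3129.6 in CON and 2225, 2262, 1971 and 1937 in LTCR (-0.54 ± 0.081, adjusted p = 3.08e-05). Its CON arrays lay within a narrow band and every LTCR array was below it. Slc35e1, an orphan of this family, was higher at 341 ± 65.5 against 225 ± 42.6 (0.55 ± 0.18, adjusted p = 0.0268), and its other probe set was at 253 and 247. The CMP-sialic acid carrier Slc35a1 was lower (277 ± 59.7 against 362 ± 30.03 units, adjusted p = 0.0373), and so was the sulfate donor carrier Slc35b2 (821 ± 59.5 against 972 ± 89.3, adjusted p = 0.0293), named after its values were seen. The Slc35e1 call was lost without CON 2, CON 4, LTCR 1, LTCR 2 or LTCR 4 (0.0603 to 0.0965), that of Slc35a1 without CON 1, CON 2, CON 3, LTCR 1, LTCR 2 or LTCR 4 (0.0536 to 0.132), and that of Slc35b2 without CON 2, CON 4, LTCR 1, LTCR 3 or LTCR 4 (0.0523 to 0.119).

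Metal carriers were called at 3 of 18 probe sets, beside 18.9% of all tested. All 3 were lower in LTCR, where 11.5% of all tested were called lower, and the median of the 18 was -0.19. The largest fall of any member was in Slc39a4, the zinc importer ZIP4, which was named after its values were seen. Its dimmer probe set read 774, 461, 776 and 749 in CON and 252, 157, 206 and 192 in LTCR (-1.64 ± 0.25, adjusted p = 3.25e-05). No LTCR array reached the lowest array of another group, 461 in CON. The brighter probe set of the same gene, whose suffix r marks probes picked by relaxed rules, averaged 1427 ± 40.7 in CON and 1702 ± 226 in LTCR (0.24 ± 0.13, adjusted p = 0.199), so the 2 probe sets disagreed in sign. Slc39a7 (ZIP7), which releases zinc from the endoplasmic reticulum, was lower at 564 ± 107 against 778 ± 63.8 units (-0.46 ± 0.13, adjusted p = 0.0115), and the call was lost without LTCR 4 (0.0782), the array with its lowest value, 412. The copper importer Slc31a1 was lower by its dimmer probe set, also chosen after its values were seen, at 1368 ± 77.1 against 1856 ± 181 (-0.43 ± 0.12, adjusted p = 0.0088). Its brighter probe set was lower by a smaller and uncalled amount (-0.22 ± 0.10, adjusted p = 0.133).

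The zinc exporter Slc30a1 read 152, 156, 159.8 and 177 in CON and 127, 119.5, 95.8 and 112 in LTCR. Its arrays did not overlap, but the difference missed the threshold (-0.42 ± 0.16, adjusted p = 0.0641). Slc11a1, the phagosomal metal carrier of macrophages, was dim and uncalled, at 107 to 171 in CON and 49.1 to 163 in LTCR; the macrophage list of which it is no part is given above.

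Carriers of ions, vitamins and organic solutes moved both ways. Slc12a7, the potassium chloride cotransporter KCC4, read 1468, 1396, 1458 and 1705 in CON and 989, 1220.5, 1045 and 1024 in LTCR (log2 difference -0.48 ± 0.089, adjusted p = 0.000271). Slc22a30, an organic anion carrier of the mouse, read 3194, 2868, 2662 and 2419 in CON and 1523, 1605, 2150 and 1253 in LTCR (-0.78 ± 0.13, adjusted p = 0.000133). Neither pair of groups overlapped; Slc22a30 has close relatives in the mouse genome, and its probe set may take signal from them. Slc23a2, a sodium-dependent vitamin C carrier, was lower at 554 ± 96.7 against 865 ± 106 (-0.63 ± 0.16, adjusted p = 0.0056). Slc17a1, a sodium phosphate and urate carrier, was higher by both of its probe sets, at 444 ± 65.3 against 268 ± 45.8 units (0.68 ± 0.20) and 376 ± 39.6 against 225 ± 69.0 (0.72 ± 0.21), with adjusted p of 0.0151 and 0.0162. Both calls were lost without CON 1 (0.0516 and 0.0937).

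The bicarbonate cotransporter Slc4a4 was lower at 417 ± 84.6 against 648 ± 105 (-0.61 ± 0.20, adjusted p = 0.0356), and its call was lost without CON 1, CON 2, CON 4, LTCR 1, LTCR 2 or LTCR 4 (0.0594 to 0.0993). The anion exchanger Slc4a2 was higher, at 649.8 ± 84.6 against 469 ± 34.5 (0.44 ± 0.11, adjusted p = 0.0042), and is named after its values were seen. The choline carrier Slc44a1 was lower (376 ± 65.6 against 548 ± 95.6, adjusted p = 0.0419), and its relative Slc44a4, named after its values were seen, was higher (771 ± 46.1 against 598 ± 73.9, adjusted p = 0.0495). The first call was lost without CON 1, CON 3, CON 4, LTCR 2 or LTCR 3 (0.0534 to 0.144) and the second without any 1 array but CON 4 (0.0626 to 0.176). Slc16a7 (MCT2), which carries lactate, pyruvate and ketone bodies, was lower at 706 ± 98.5 against 961 ± 198 (-0.42 ± 0.12, adjusted p = 0.0162). The lowest CON array, at 763, lay under 1 LTCR array, at 846, and the call was lost without CON 1 or LTCR 4 (0.0674 and 0.09999). The adaptor Slc4a1ap was lower at 93.3 ± 45.3 against 173 ± 14.01 units (-0.83 ± 0.20, adjusted p = 0.0029), with 1 LTCR array at 28.8, about the added value of 27.

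Fatty acid carriers had 2 member probe sets. Slc27a2, the very long chain acyl-CoA synthetase, averaged 10307 ± 696 in CON and 10172 ± 596 in LTCR (adjusted p = 0.93). Slc27a4, which was dim, read 192, 146, 110.3 and 105 in CON and 177, 214, 196 and 187 in LTCR (0.44 ± 0.15, adjusted p = 0.0355). The groups overlapped through CON 1, and the call was lost without CON 3, CON 4, LTCR 2, LTCR 3 or LTCR 4 (0.0576 to 0.137). From a panel of 51 carriers by role, chosen with earlier results of these data known, 32 were members. In LTCR, 7 of the 32 were called higher and 4 lower, beside 7.41% and 11.5% of all tested probe sets. The median log2 difference of the 32 was 0.12. The other 19, among them Slc2a1, Slc16a1, Slco1a1 and Slco1b2, were not members.

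**Figure D3:**
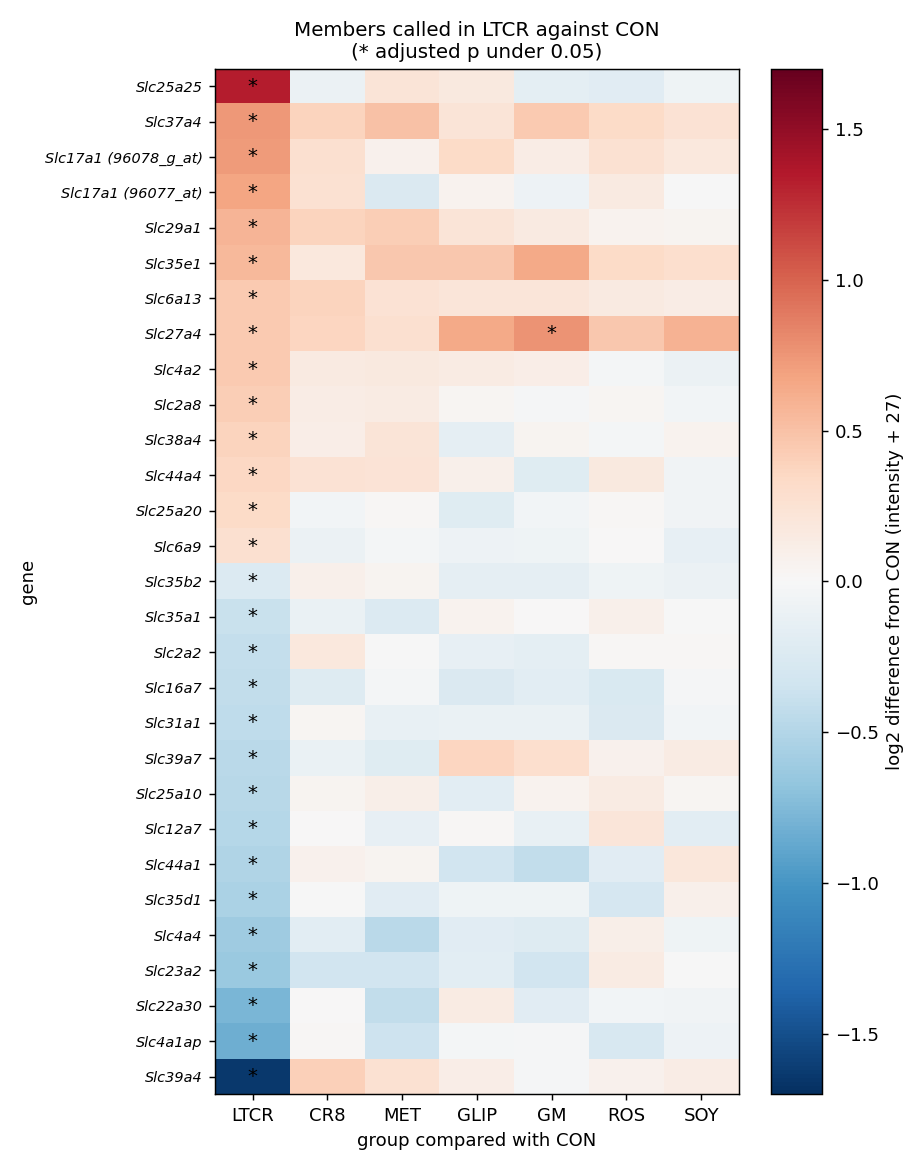
Log2 difference from CON (colour scale) of the 29 probe sets called in LTCR against CON (rows, ordered by that difference) in the 7 groups compared with the same 4 CON arrays (columns); a star marks an adjusted p under 0.05. Outside the LTCR column, 1 cell is starred, Slc27a4 in GM at 0.76.

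Against the short restriction of CR8, LTCR differed at 18 of 115 member probe sets (15.7%), 8 higher and 10 lower, beside 11.7% of all tested (4.57% higher and 7.11% lower). This comparison shares the LTCR arrays with the one above, so its calls are no independent repeat of it. Slc25a25 was at 5912 ± 492 in LTCR and at 2217, 1378, 2869 and 2555 on the CR8 arrays (log2 difference 1.43 ± 0.23, adjusted p = 0.000126). Slc39a4 by its dimmer probe set was at 655, 671, 2091 and 717 in CR8 (-2.04 ± 0.25, adjusted p = 7.44e-06); the array CR8 3 stood far above its group, and the difference from the LTCR arrays held for every CR8 array. Slc2a2 read 6472, 7189, 6564 and 7017 in CR8, above every LTCR array (-0.58 ± 0.096, adjusted p = 0.000192). Slc35d1, Slc12a7 and Slc22a30 were lower in LTCR by 0.53, 0.50 and 0.78 in log2 size, with values of 3048 ± 379, 1517 ± 67.1 and 2799 ± 426 in CR8.

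Several members differed between the 2 restricted groups without being called in LTCR against CON. The cationic amino acid carrier Slc7a2 read 1879, 1574, 1619 and 1525 in CR8, below every LTCR array (0.72 ± 0.15, adjusted p = 0.0021). Slc25a5, the ADP/ATP carrier of most tissues, was at 2639 ± 256 in LTCR and 1917 ± 170 in CR8 (0.45 ± 0.10, adjusted p = 0.0038); the suffix f of its brighter probe set marks probes shared with related sequences. The carnitine carrier Slc22a5 (OCTN2) was at 507 ± 125 and 334 ± 20.9 (0.53 ± 0.16, adjusted p = 0.0309), and its relative Slc22a21 at 130 ± 20.9 and 71.8 ± 21.6 (0.68 ± 0.19, adjusted p = 0.0181). The Slc22a5 call was lost with any 1 array but LTCR 4 left out (0.0516 to 0.131), and that of Slc22a21 without LTCR 4 or CR8 4 (0.0681 and 0.0798). Slc25a20 (0.37), Slc6a9 (0.37) and Slc38a4 (0.26) were higher in LTCR here too, and Slc25a10 (-0.51), Slc44a1 (-0.58), Slc31a1 by its dimmer probe set (-0.46), Slc35b2 (-0.33) and Slc4a1ap (-0.85) lower. Of these, Slc25a20 was lost without any LTCR array, CR8 2 or CR8 3, Slc25a10 without LTCR 2, LTCR 3, LTCR 4, CR8 1, CR8 2 or CR8 3, Slc44a1 without LTCR 2, LTCR 3, CR8 2 or CR8 3, and Slc38a4 without LTCR 1, LTCR 2, LTCR 4 or CR8 2, with adjusted p of 0.0575 to 0.130. Without the muscle arrays, among them CR8 1 and CR8 2, 13 were called: 12 of the 18, and a second probe set of Slc25a5 (adjusted p = 0.0198). Those of Slc22a5, Slc25a10, Slc25a20, Slc31a1, Slc38a4 and Slc44a1 were lost (0.122 to 0.218).

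The 8 weeks of restriction in CR8 gave no called member against CON with limma, beside 0.533% of all tested; 12 members had an unadjusted p under 0.05, where 11.5% of all tested did. The nearest to the threshold was Slc6a13, at 3602, 3431, 4681 and 3704 against 2608 to 3453 in CON (0.39 ± 0.11, adjusted p = 0.0902). Slc29a1 read 3046, 2916, 3072 and 2808 in CR8, all above the highest CON array of 2643 (0.38 ± 0.13, adjusted p = 0.215). Slc37a4 read 2215, 2105, 2887 and 2284, also all above CON (0.38 ± 0.15, adjusted p = 0.292). Slc35b1, a carrier of the endoplasmic reticulum named after its values were seen, was at 1097 to 1161 against 1268 to 1620 (-0.33 ± 0.12, adjusted p = 0.251). For these 4 genes the values in LTCR against the same CON arrays are 0.45, 0.58 and 0.74 for the first 3, all called, and -0.29 (adjusted p = 0.0964) for Slc35b1.

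Metformin gave 1 called member, beside 4.1% of all tested, and 18 at an unadjusted p under 0.05 (17.9% of all tested). That member was Slc12a2, the sodium potassium chloride cotransporter NKCC1, at 78.3, 126, 132 and 114 against 199, 190.5, 267 and 150 in CON (-0.71 ± 0.21, adjusted p = 0.0499). The groups did not overlap, both were dim, and the call was lost with any 1 array left out but CON 4 (0.0600 to 0.168) and in 5 of the processing alternatives (0.0583 to 0.146). Slc37a4 read 2576, 2439, 2469 and 2807, above every CON array (0.50 ± 0.15, adjusted p = 0.0510). It passed with equal medians (0.0448) and with the filter at the 60th percentile (0.0401). Slc29a1 was at 3482, 2453, 3413 and 2928 (0.42 ± 0.13, adjusted p = 0.0665), and passed with equal medians (0.0479) and without CON 2 or MET 2 (0.0483 and 0.0328). Slc22a30 was at 1958 to 2248, below the CON arrays (-0.42 ± 0.13, adjusted p = 0.0717), and Slc35a2, named after its values were seen, at 104 ± 40.4 against 149 ± 20.0 (-0.47 ± 0.16, adjusted p = 0.102).

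Glipizide alone gave no called member with limma, beside 0.133% of all tested, and 9 at an unadjusted p under 0.05 (9.28% of all tested). Slc27a4 read 232, 244, 229 and 196, above the CON arrays of 105 to 192 (0.64 ± 0.15, adjusted p = 0.0944), and passed without CON 1 (0.0221). Slc7a2 read 1362, 1517, 1758 and 1342, under the lowest CON array of 1764 (-0.49 ± 0.15, adjusted p = 0.253). With both drugs, GM, Slc27a4 was the 1 called member, beside 1.55% of all tested, at 273, 248, 232 and 234 units (0.76 ± 0.15, adjusted p = 0.0134), and 19 members had an unadjusted p under 0.05 (17.6% of all tested). No GM array overlapped CON, but the call was lost without CON 4 (0.0571), without the muscle arrays (0.0560) and in a fit to GM and CON alone (0.113). Slc37a4 read 2778, 1758, 2785 and 2738 in GM, 3 arrays above CON and 1 within it (0.45 ± 0.15, adjusted p = 0.108), and passed without the low array GM 2 (0.0307). Slc9a8, a sodium proton exchanger named after its values were seen, was at 784 to 881 against 496 to 703 in CON (0.38 ± 0.12, adjusted p = 0.0883). The uncalled member nearest the threshold was Slc35e1, also named after its values were seen, at 351, 335, 350 and 416 units against 182 to 281 in CON (0.64 ± 0.18, adjusted p = 0.0546). Its GM and CON arrays did not overlap, and it passed with quantile normalization (0.0405), equal medians (0.0121) and the filter at the 60th percentile (0.0446). Its other probe set was lower by an uncalled amount, at 205 ± 45.6 against 247 ± 38.1 units (adjusted p = 0.381).

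Between GM and MET 1 member was called, beside 2.57% of all tested, and 19 had an unadjusted p under 0.05 (17.7% of all tested). It was the zinc carrier Slc39a7, at 868, 874, 1154 and 929.5 units in GM and 737, 781, 629 and 555 in MET (0.49 ± 0.13, adjusted p = 0.0389), with no overlap. The call was lost without MET 3, MET 4, GM 2, GM 3 or GM 4 (0.0566 to 0.140). In GLIP alone Slc39a7 was at 949.7, 843, 1113 and 1155 (0.37 ± 0.13 against CON, adjusted p = 0.341). Between GM and GLIP no member and none of the 7507 tested probe sets was called with limma, and 11 members had an unadjusted p under 0.05, beside 9.07% of all tested.

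Rosiglitazone and soy isoflavones gave no called member against CON with limma, beside 0.133% and 0% of all tested. In each, 11 members had an unadjusted p under 0.05, where 8.47% and 8.14% of all tested did. In ROS, Slc35d1 was at 2945, 2303, 2469 and 2278, all below the CON arrays (adjusted p = 0.189), and Slc27a4 at 176, 225, 193 and 192 (0.46 ± 0.15, adjusted p = 0.28). In SOY, Slc27a4 was at 244, 188, 236 and 199.6 (0.59 ± 0.15, adjusted p = 0.397). Slc4a3, an anion exchanger named after its values were seen, was dim and lower in both, at 63.8 ± 27.9 in ROS and 72.0 ± 43.9 in SOY against 192 ± 20.6 in CON, with adjusted p of 0.241 and 0.397. Slc37a4 was at 1962 to 2486 in ROS (0.32 ± 0.15, adjusted p = 0.56), above every CON array, and at 1919.6 to 2675 in SOY.

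Over the 8 groups together, the moderated F test called 28 of 115 members (24.3%), beside 26.5% of all tested. LTCR was the highest group for 13 of the 28 and the lowest for 12, and over all 115 members for 38 and 28. The same count was not made over all tested probe sets, of which 18.9% were called in LTCR against CON. It is thus not read as a trait of the carriers. The 10 smallest p belonged to Slc39a4 by its dimmer probe set, Slc35d1, Slc12a7, Slc25a25, Slc22a30, Slc39a7, Slc38a4, Slc7a2, Slc2a2 and Slc25a5. Their adjusted p in the F test ran from 2.1e-05 to 0.0044. The brighter probe set of Slc39a4 was not called (adjusted p = 0.139), and LTCR was its highest group. LTCR was the highest or lowest group for each of these 10. For Slc39a7 the other end was GLIP, at 1015 ± 145 units against 564 ± 107 in LTCR, and for Slc7a2 it was also GLIP, at 1495 ± 192 against 2736 ± 367. For Slc12a7 it was ROS, at 1744 ± 115 units, and for Slc25a5 it was GM, at 1833 ± 175. For Slc6a13, Slc27a4, Slc29a1 and Slc37a4, which the F test also called, the lowest group was CON.

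**Figure D4:**
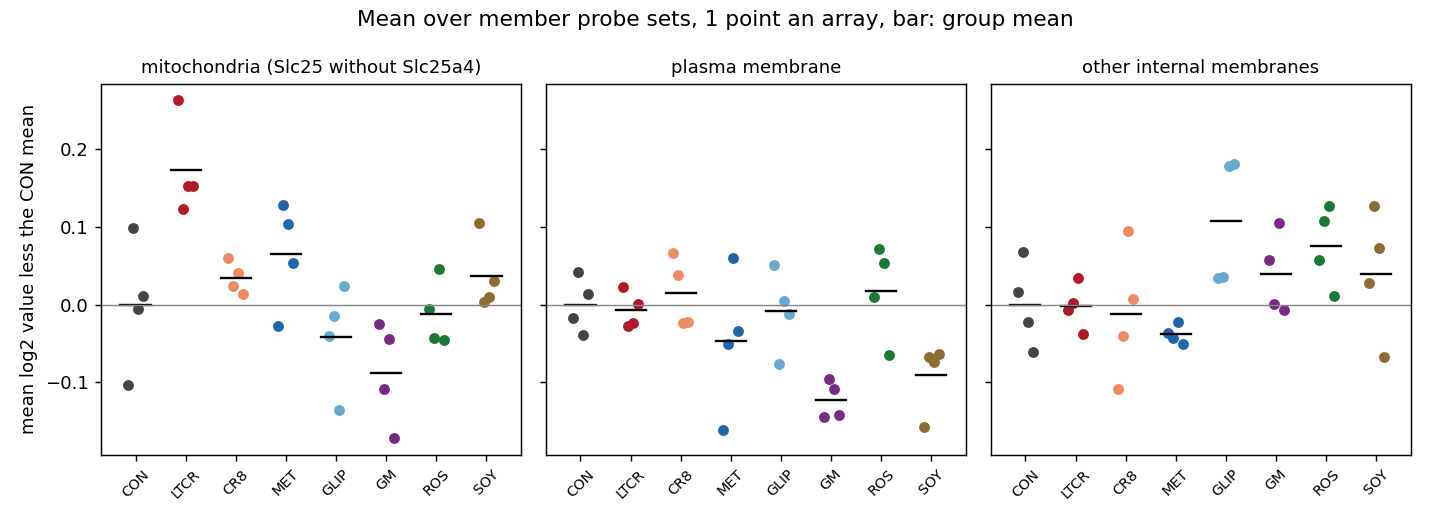
Mean log2 value of the member probe sets of each membrane class on each array, less the CON mean (points, y axis), with the group mean as a bar; Slc25a4 is left out of the mitochondrial class. The LTCR arrays of the mitochondrial class (0.12 to 0.26) lie above all CON arrays, and the GM and SOY arrays of the plasma membrane class lie below all CON arrays, a position that does not keep its sign under scaling to equal medians.

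The mean over each class moved little. Without Slc25a4, the Slc25 members averaged 0.17 ± 0.062 in LTCR relative to CON (SD, n = 4), 0.035 ± 0.020 in CR8, 0.065 ± 0.069 in MET and -0.087 ± 0.066 in GM. Slc25a25 supplied much of the LTCR value: with it left out too, the mean over the other 15 probe sets was 0.095 ± 0.065 in LTCR, and its arrays (0.037 to 0.19) overlapped those of CON (-0.087 to 0.087). With Slc25a25 kept in, the LTCR value was 0.16 after quantile normalization and 0.21 with equal medians, while the GM value became -0.077 and 0.050. Plasma membrane members averaged -0.12 ± 0.024 in GM and -0.091 ± 0.045 in SOY, and in the other groups between -0.046 and 0.018. All tested probe sets averaged -0.057 in GM and -0.046 in SOY, and with equal medians the plasma membrane means turned to 0.0085 and 0.014. Members in other internal membranes averaged 0.11 ± 0.084 in GLIP and 0.076 ± 0.052 in ROS, with 0.12 and 0.062 under equal medians, and in LTCR -0.0020 ± 0.030. No test was made on these means.

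**Figure D5:**
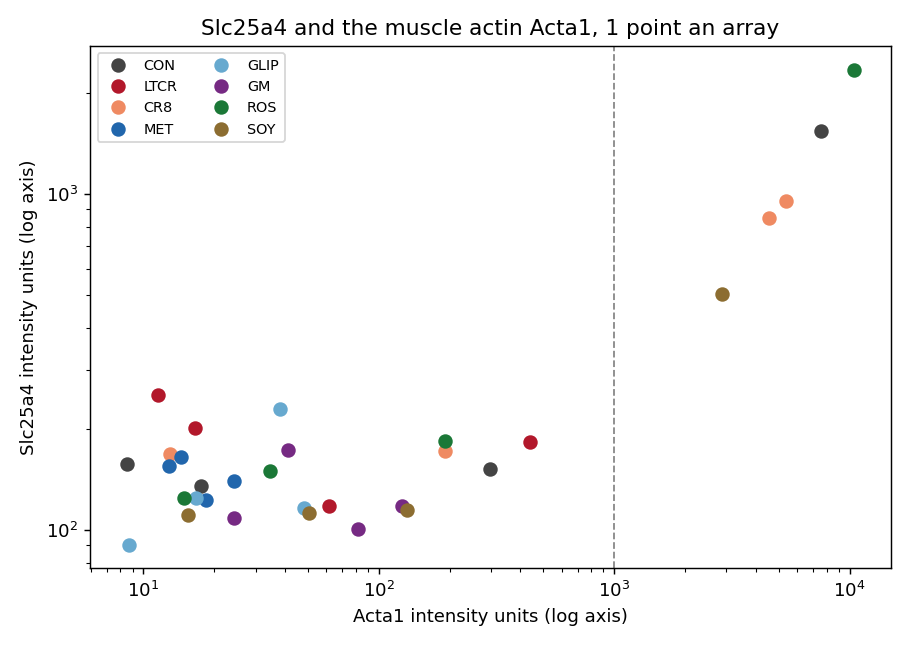
Slc25a4 against Acta1 intensity on the 32 arrays (both axes log scaled), coloured by group; the dashed line marks 1000 Acta1 units. The 5 arrays to its right have Slc25a4 at 504 units or more and the other 27 have 252 or less.

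Slc25a4, the ADP/ATP carrier of heart and skeletal muscle, was the member with the widest spread within groups, a residual SD of 1.07 in log2, which lay at percentile 99.7 of all tested probe sets. It read 1542 on CON 3, 847 and 954 on CR8 1 and CR8 2, 2343 on ROS 4 and 504 on SOY 3. These are the 5 arrays with muscle transcripts. On the other 27 arrays it read 90.6 to 252. It was the only member whose values on those 5 arrays lay wholly apart from the rest. None of its comparisons between groups was called, and class means are given without it.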

How the data were processed

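Intensities of liver RNA on 32 arrays were analysed as the authors deposited them, 1 linear intensity per probe set and array. The deposited table shows that they were scaled: the mean of each column without its top and bottom 2% was 500.4 to 500.5. Software and background correction are not given in the sources used here, nor are detection calls, scan dates or batches. The number of arrays limits the precision. Gene names came from the platform annotation, with 66 control probe sets left out. Values were taken as log2(intensity + 27), which understates changes of dim genes. Probe sets with a mean above 94.2, the 40th percentile, (7507) entered 1 limma fit over the 8 groups (version 3.58.1, R 4.3.3; lmFit and trended eBayes; residual degrees of freedom 24, prior 4.60), with a Benjamini-Hochberg threshold of 0.05 in each of 10 comparisons. The script was tested on simulated data. Classes come from family numbers. The labels do not say what same-numbered arrays share, so arrays were treated as independent samples. The p-values weigh group differences against the spread between arrays of a group, estimated over all 8 groups.

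Members, lists and tests were chosen with earlier results of these data known. Named genes were, per comparison, up to 6 largest rises and 6 largest falls among called genes, the 10 smallest F p, and a panel of 51; where a gene had several probe sets the brightest stood for it, and exceptions are marked. The alternatives were other scaling, added values, filters, probe set choices, a fit to the compared groups, a replicate block, each array left out and, added after seeing the data, leaving out 5 arrays with Acta1 above 1000.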

Additional observations from a re-analysis of the deposited data

Results flagged for a closer look

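In each group of 4, an array whose value stood apart from the other 3 by more than Dixon's 95% critical value was listed. Of 424 such tests on 53 member probe sets, 25 were listed, where chance lists about 1 in 20; none of these values was left out of the main results.

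Slc25a4 stood apart on CON 3 (1542.2 units, others 135 to 157), ROS 4 (2342.5, others 125 to 184) and SOY 3 (503.6, others 111 to 115), which are arrays with muscle transcripts. Slc39a4 by its dimmer probe set was high on CR8 3 (2091, others 655 to 717) and low on CON 2 (461.3, others 749 to 776). Slc37a4 was low on GM 2 (1757.8, others 2738 to 2785). Slc38a4 was low on MET 1 (13966.9) and ROS 2 (13188.1) and high on SOY 4 (15650.3). Slc11a1, the macrophage metal carrier, was high on GLIP 3 (462.8, others 134 to 183) and ROS 2 (273.9, others 175 to 183); the macrophage list summed to 17369 on its highest GLIP array and at least 4736 on the lowest.

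Among mitochondrial carriers, Slc25a20 was low on CON 3 (3640) and SOY 2 (2954.7), and Slc25a17 on LTCR 2 (875). The high arrays of the other members were LTCR 3 for Slc35a1 (365), GLIP 2 for Slc2a2 (5843.8), GLIP 4 for Slc22a30 (3828.1) and Slc35a2 (165.7), ROS 2 for Slc31a1 by its dimmer probe set (1891), CR8 3 for Slc23a2 (855.9), SOY 2 for Slc7a2 (2147.6) and GM 1 for Slc4a1ap (179.3). The low arrays were GM 1 for Slc22a21 (70), GLIP 1 for Slc30a1 (121.3) and GM 2 for Slc26a1 (736.4).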

How the results depend on the processing

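Of the calls, 13 of 29 in LTCR against CON and 8 of 18 in LTCR against CR8 held in every alternative run, and 15 and 12 held with each array left out; no called probe set changed sign. With equal medians LTCR against CON had 25 calls, 15 higher and 10 lower, in place of 14 and 15; the median of all probe sets then moved from -0.051 to 0.084 in GM against CON. Calls in MET against CON went from 1 to 0 with quantile normalization, an added value at the 40th percentile, no filter, a fit to the compared groups alone or without the muscle arrays, and to 2 with equal medians or with the replicate block. Those in GM against CON went from 1 to 2 with quantile normalization, 5 with equal medians, and 0 with a fit to the compared groups or without the muscle arrays. Those in GM against MET went from 1 to 3 with quantile normalization or the filter at the 60th percentile, 2 with equal medians, an added value of 1, the replicate block or 1 probe set per gene, and 0 with no filter, a fit to the compared groups or without the muscle arrays. The cause was not tested.

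With single arrays left out, calls ranged from 19 to 28 in LTCR against CON, 14 to 17 in LTCR against CR8, 0 to 1 in MET and in GLIP against CON (1 in GLIP without CON 1), 0 to 3 in GM against CON and 0 to 3 in GM against MET, and from 22 to 33 for the F test. No call was made in CR8, ROS or SOY against CON or in GM against GLIP with any array left out. Outside the muscle arrays and single arrays, LTCR against CON calls were lost for Slc16a7, Slc25a10, Slc25a20, Slc27a4, Slc35a1, Slc35b2, Slc35e1, Slc38a4, Slc39a7, Slc44a1, Slc44a4, Slc4a1ap, Slc4a4 and Slc6a9 in at least 1 processing alternative (adjusted p 0.0506 to 0.141). With the replicate number as a block, 27 calls in LTCR against CON, 17 in LTCR against CR8 and 29 by the F test were made, and Slc37a4 in MET against CON passed (0.0430). Arrays with the same number had a median correlation of deviations of -0.011 against -0.0014 for other pairs, and 7 of 32 arrays correlated best with their own number, so the numbers were not taken as pairs. Probe sets under about 100 units lie near the added value of 27, where a difference is compressed.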
